A study of Mus musculus with 14 samples.

Results

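The regions described are CpG island promoters of mouse protein-coding genes whose transcription start site (TSS) itself lay inside an H3K4me1 site. Each gene was represented by its most 5′ TSS, and its promoter counted as an island promoter when a CpG island lay within 1 kb. The TSS base was inside a site at 6684 of 11802 island promoters, or 56.6% (95% Wilson interval 55.7 to 57.5%). Over the promoters of all 21938 coding genes, with or without an island, it was inside a site at 8662, or 39.5%. Where the most 5′ TSS was that of the principal transcript, the share was 55.1% (4679 of 8495 island promoters). At the other 3307 it was 60.6% (2005). The TSS used lay more than 100 bp from the principal one at 1064 of the 6684 promoters (15.9%), against 14.1% of all island promoters. These promoters were chosen by the measured positions of the sites, so the share of TSSs inside a site, the presence of an island and any excess of wide sites are properties of the choice and are given as a description.

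The ChIP-seq experiment on H3K4me1 used NG3 cells, a single clone of immortalized mouse embryo fibroblasts (iMEF). In all samples, controls included, exon 4 of the endogenous Ash2l gene had been deleted and the cells grew on a lentiviral human ASH2L fused to FKBP12F36V, a tag through which the PROTAC dTAG triggers degradation of the protein. Libraries came from cells without dTAG and from cells treated with dTAG for 30 min, 2 h, 4 h, 8 h and 16 h, 2 per condition and 12 in all, beside 1 input library each of untreated cells and of cells after 16 h. The table analysed here is 1 set of peaks over all samples. It gives where a site starts and ends and nothing measured in a single library, so a site can stem from control cells, treated cells or both, and no test between conditions or replicates was possible from it. The study's list of sites that changed after dTAG was not analysed here. Read depth is not in the table either. Of 17 genes typical of fibroblasts, 15 had a site within 1 kb of the TSS, against 8 of 11 for epithelial, 7 of 9 for neuronal, 4 of 8 for endothelial, 3 of 10 for blood cell and 2 of 7 for skeletal muscle genes. Over all 21938 coding genes, 14009 had such a site, and the fibroblast, epithelial and neuronal genes all lay above that share. A site is not a measure of expression. Of the 8 fibroblast markers with an island promoter, 5 had the TSS in a site, 2 had a site-free TSS with a site on either side and 1 had no site within 1 kb.

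H3K4 methylation is written by KMT2 methyltransferases, which work in COMPASS complexes with ASH2L as a core subunit. H3K4me1 typically marks enhancers and the flanks of active promoters, whereas the nucleosomes next to the TSS of an active CpG island promoter usually carry H3K4me3. CpG islands are stretches rich in G, C and the dinucleotide CpG that mark the promoters of most housekeeping genes and of many regulators of development. A site over the TSS of an island promoter therefore lies where the trimethylated form is often found.

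Sequences from the islands are shown for promoters of gene lists that the text returns to, to let the CpG content be seen beside the position of the site. For 2 gene lists with the TSS in a site, Hox genes and collagens, the promoter is that of the member under the widest site among those with the 200 bases before the TSS fully inside the island, and free of annotated exons. For the chaperone list, the promoter with the longest site-free stretch around the TSS is shown by the same conditions, as a contrast. The bases are those of GRCm38.p6 (mm10) in the direction of transcription, ending 1 base before the TSS, and each CpG is in capitals. The members were Hoxa13 (chr6:52260881-52261080, minus strand, 33 CpG) and Col5a1 (chr2:27886225-27886424, plus strand, 20 CpG). The site-free promoter was Hspa8 (chr9:40800784-40800983, plus strand, 19 CpG).
Hoxa13: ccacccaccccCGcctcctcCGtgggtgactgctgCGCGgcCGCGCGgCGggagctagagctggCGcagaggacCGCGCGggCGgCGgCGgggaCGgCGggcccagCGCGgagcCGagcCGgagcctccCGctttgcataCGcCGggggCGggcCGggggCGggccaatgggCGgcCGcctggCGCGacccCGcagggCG
Col5a1: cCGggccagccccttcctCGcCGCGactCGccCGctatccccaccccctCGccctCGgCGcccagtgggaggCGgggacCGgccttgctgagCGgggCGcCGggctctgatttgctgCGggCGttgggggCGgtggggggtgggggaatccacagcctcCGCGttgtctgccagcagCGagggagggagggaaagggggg
Hspa8: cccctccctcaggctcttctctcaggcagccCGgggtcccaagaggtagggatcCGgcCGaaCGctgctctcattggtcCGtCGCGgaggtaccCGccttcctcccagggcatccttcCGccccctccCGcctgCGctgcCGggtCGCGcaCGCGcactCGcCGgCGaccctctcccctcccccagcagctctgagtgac
The number of CpG in these windows was 33 and 20 in the promoters with the TSS in a site and 19 in the site-free one, so Col5a1 and Hspa8 differed by 1. The site over the Hoxa13 TSS, which encodes a homeodomain factor of limb and genital development, was 4608 bp wide and reached 2659 bp upstream and 1948 bp downstream. At Col5a1, a fibrillar collagen, it reached 3696 bp upstream and 11707 bp downstream. At Hspa8, which encodes a constitutive HSP70 chaperone, 765 bp around the TSS were free of sites, with a site on either side.

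At the 6684 promoters, the site over the TSS was 1979 bp wide at the median, with quartiles of 1339 and 2844 bp. It reached a median of 657 bp upstream of the TSS (quartiles 356 and 1077 bp) and 1200 bp downstream (quartiles 741 and 1835 bp), upstream and downstream being counted in the direction of transcription. The downstream reach was the longer at 4938 promoters or 73.9% (95% Wilson interval 72.8 to 74.9%), the upstream reach at 1744, and both were equal at 2. The median difference between downstream and upstream reach was 500 bp. Thus the TSS lay off the centre of its site, at a median of 35.1% of the site's length from the upstream end (quartiles 21.4 and 51.0%). The choice asks only that the TSS base is covered, but it takes the most 5′ TSS. Any other annotated start of a gene therefore lies downstream, and the part of this in the longer downstream reach was not tested. With the TSS of the principal transcript instead, the downstream reach was the longer at 73.2%.

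The extremes were broad. Widths ran from 200 to 19095 bp, with 5.72% of the promoters (382) under a site of at least 5 kb and 2.54% (170) under one of less than 500 bp. The site reached at least 1 kb upstream at 1916 promoters and at least 1 kb downstream at 4014. It did both at 1287 promoters or 19.3%, and it stayed under 1 kb on either side at 2041 or 30.5%. The TSS was within 50 bp of the upstream edge of its site at 233 promoters and within 50 bp of the downstream edge at 52. Just inside the limit of the choice were Gcfc2, Adam1a and Gm42878, each with the TSS as the first base of the site. The last 2 share a TSS and a site of 1515 bp. Just outside were D430041D05Rik, Dleu7 and Klf8, whose sites of 1285, 316 and 783 bp began 1 base downstream of the TSS.

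**Figure D1:**
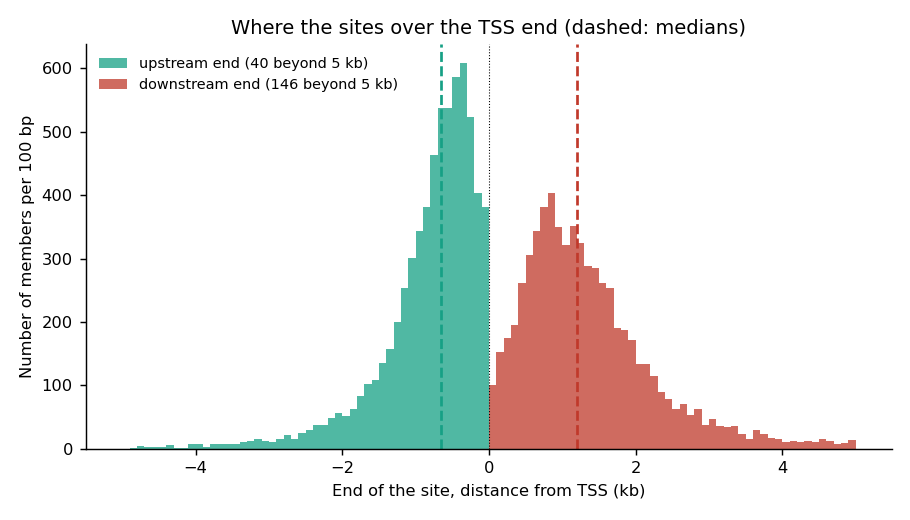
Histogram of the upstream and downstream ends of the site over the TSS for the 6684 promoters, as distance from the TSS in kb (x axis) and number of promoters per 100 bp (y axis), with medians as dashed lines. The upstream median is 657 bp and the downstream median 1200 bp, and 40 upstream and 146 downstream ends lie beyond 5 kb.

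The neighbours among the island promoters were 2794 (23.7%) with a site-free TSS between a site on either side within 1 kb, 1358 (11.5%) with a site on the downstream side alone, 136 (1.15%) with one on the upstream side alone and 830 (7.03%) without a site within 1 kb. At the 2794 promoters with 2 flanks, a median of 421 bp around the TSS was free of sites (quartiles 338 and 567 bp). This stretch was not centred, with its edge a median of 268 bp from the TSS upstream and 135 bp downstream. Measured from the outer edge of one flank to the outer edge of the other, the span of H3K4me1 had a median of 2509 bp (quartiles 1945 and 3402 bp), wider than the median site over a TSS. The outer edges lay a median of 1016 bp upstream and 1386 bp downstream. In both classes, therefore, the median reach was longer downstream than upstream. Of the 10136 coding promoters without an island, 1978 (19.5%) had the TSS in a site, and there the site was narrower at the median, with 1312 bp in width, 474.5 bp upstream and 680.5 bp downstream.

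The profile of coverage in 100 bp bins shows the same shape from the side of the promoters. Bins are named by their upstream edge, so a bin 1 or 2 kb upstream lies 100 bp nearer the TSS than its downstream counterpart. At the 6684 promoters, coverage 1 kb upstream was 37.4% and 1 kb downstream 64.7%, and at 2 kb it was 15.6% and 32.0%. At the promoters with a site-free TSS it was 56.7 and 72.7% at 1 kb and 21.3 and 41.7% at 2 kb. These promoters were chosen for a site on either side within 1 kb, so their coverage there is in part set by the choice. Over the whole window of 1 kb to either side, a median of 78.8% of the bases was covered at the promoters with the TSS in a site and 66.5% at those with 2 flanks. Those without an island had 17.4 and 24.4% at 2 kb. Coverage at the TSS bins likewise follows from how the 3 groups were chosen. At 84.3% of the promoters with the TSS in a site (5638), this was the single site within 1 kb.

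**Figure D2:**
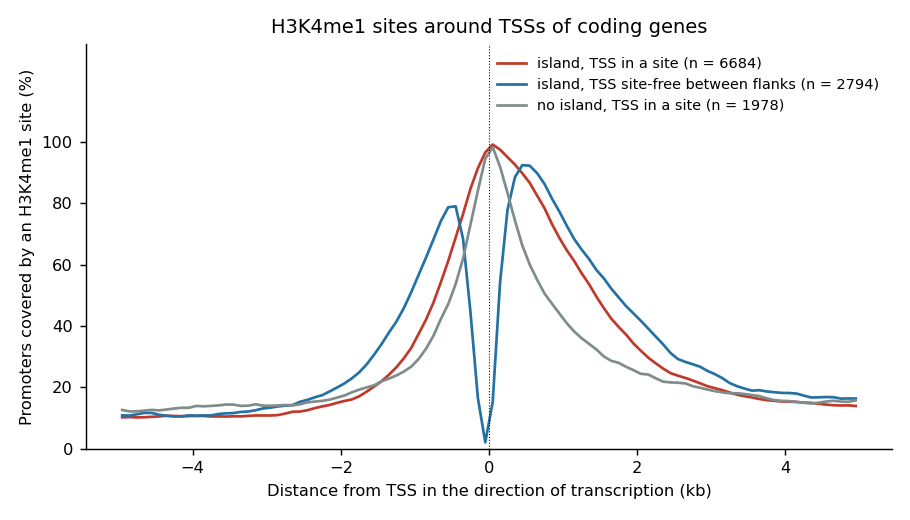
Share of promoters covered by an H3K4me1 site (y axis, %) in 100 bp bins by distance from the TSS (x axis, kb, direction of transcription), for island promoters with the TSS in a site (n = 6684), island promoters with a site-free TSS between 2 flanks (n = 2794) and promoters without an island with the TSS in a site (n = 1978). The 2 island groups are both skewed downstream. Coverage was 64.7 and 72.7% in the bin 1 kb downstream against 37.4 and 56.7% in the bin 1 kb upstream. Bins are named by their upstream edge.

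The sites were compared with the features of the genes beneath them. The TSS was inside the island itself at 5245 promoters (78.5%), close to the 78.9% among all island promoters. At these 5245, the site ran past the upstream end of the island in 91.7%, past the downstream end in 90.9% and past both ends in 84.0%. The median distance from the end of the island to the end of the site was 454 bp upstream and 668 bp downstream. The islands themselves extended a median of 179 bp upstream and 441 bp downstream of the TSS, so island and site were skewed to the same side. In genes of more than 1 exon, the site passed the end of the first exon in 5988 of 6401 (93.6%), by a median of 900 bp over all 6401. The start codon of the transcript lay in the site in 3872 of 5951 (65.1%), and 119 genes (1.78%) lay in the site from the TSS to their end.

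**Figure D3:**
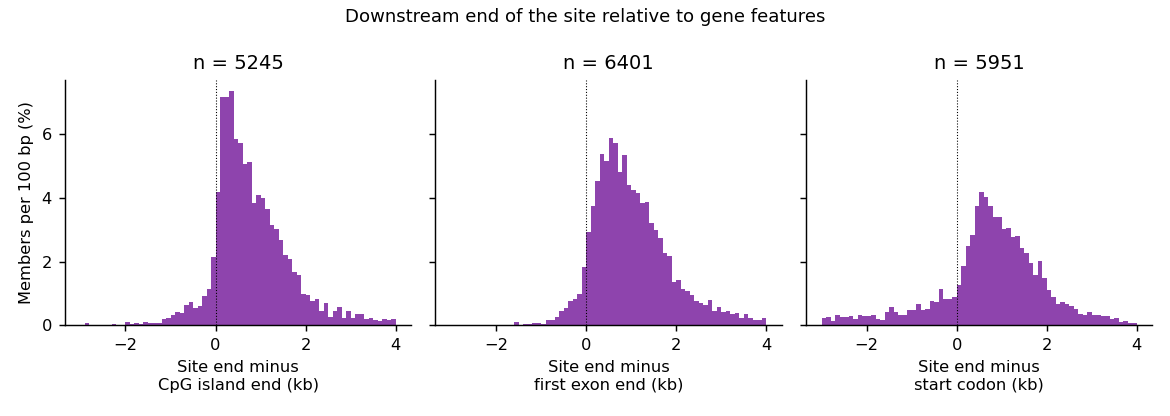
Distribution of the distance from the downstream end of the CpG island (n = 5245), the end of the first exon (n = 6401) and the start codon (n = 5951) to the downstream end of the site (x axes, kb, positive where the site ends beyond the feature), as share of promoters per 100 bp (y axis, %). The medians are 668, 900 and 574 bp beyond the feature.

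Longer islands went with wider sites but not with a higher share of covered TSSs. In the fifth of island promoters with the shortest islands (201 to 389 bp), the TSS was in a site in 55.1% and the median width was 1658 bp. In the fifth with the longest (1010 to 5274 bp), the share was 55.7% and the width 2312 bp. The share lay between 54.7 and 59.5% in all 5 groups by island length, and the share with a site-free TSS between 2 flanks was 15.0% in the first and 31.3% in the last. In the 1 kb around the TSS, the median GC content was 60.6% for the promoters with the TSS in a site and 62.1% for those with 2 flanks. The median ratio of observed to expected CpG was 0.741 and 0.815, and it was 0.630 for island promoters without a site. Sites, islands and GC content all vary along the same sequence, and no test was made of these medians.

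Short sequence motifs were counted from 200 bp upstream to 50 bp downstream of the TSS, on both strands. The CCAAT box, letters CCAAT, was found at 28.2% of the promoters with the TSS in a site (95% Wilson interval 27.1 to 29.3%) and at 46.1% of those with 2 flanks (44.3 to 48.0%), with 34.3% over all island promoters. The box bound by SP and KLF factors, GGGCGG, was found at 65.1 and 74.9%, with 65.7% over all. The core of ETS factor sites, CCGGAAG, was found at 15.2 and 19.8%, the NRF1 half-site GCATGCG at 5.40 and 8.16%, and the YY1 core ATGGCGGC at 3.50 and 5.58%. The E-box CACGTG was found at 9.34 and 9.99%, and the TATA box TATAAA at 4.74 and 4.37%. The cyclic AMP response element TGACGTCA was found at 3.07 and 4.47%. Over all island promoters, the shares were 16.05% for CCGGAAG, 6.21% for GCATGCG and 4.08% for ATGGCGGC. They were 9.51% for CACGTG, 5.10% for TATAAA and 3.38% for TGACGTCA. For each of these, the promoters with the TSS in a site lay slightly below the share over all island promoters. Over all 21938 coding promoters, CCAAT was found at 7678, and the shares were 41.8% for GGGCGG, 10.2% for CCGGAAG, 4.33% for GCATGCG, 2.40% for ATGGCGGC, 6.91% for CACGTG, 2.33% for TGACGTCA and 10.5% for TATAAA. A match is a match of letters, and binding was not measured.

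Promoters were called divergent when a second coding gene started on the other strand, at most 1 kb upstream of the TSS. They made up 665 of the 6684 promoters or 9.95%, against 11.5% of all island promoters and 20.6% of those with 2 flanks. Pairs whose partner started downstream of the TSS, such as Col4a1 and Col4a2, were not called divergent and are among the other promoters. The partner's TSS lay in the same site in 611 of the 665 (91.9%). At divergent promoters the direction was nearly even, with the longer reach downstream in 46.6% (95% Wilson interval 42.9 to 50.4%), against 76.9% (75.8 to 77.9%) at the other 6019. The upstream reach was the side that differed most, with a median of 1129 bp at divergent and 622 bp at other promoters, while the downstream medians were 1061 and 1216 bp. The upstream side of a divergent promoter is the downstream side of its partner. Where both TSSs lie in the same site, at most 1 of the 2 can have the longer reach downstream. The nearly even direction and the longer upstream reach thus follow largely from this layout and are given as a description. Both promoters of a pair can enter the count, so the interval treats as independent what is not. The TSS was in a site at 49.2% of divergent and 57.6% of other island promoters.

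The 6684 promoters shared 6048 distinct sites, 3.78% of all 160108 sites on chromosomes. Of these sites, 5442 covered 1 TSS of the group, 578 covered 2 and 28 covered 3 or more, with 4 as the largest number. Promoters that share a site share its width and are not independent. Among the 28 was a site of 3 histone genes, Hist2h2ab, Hist2h2ac and Hist2h2be (chr3:96219830-96222452), and a site over Rabgap1, Zbtb26 and Zbtb6 (chr2:37442614-37443738).

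By chromosome, the share of island promoters with the TSS in a site was 57.8% over the autosomes, from 52.1% on chromosome 5 to 63.5% on chromosome 15. On X it was 55 of 325, or 16.9% (95% Wilson interval 13.2 to 21.4%), and the median width there was 914 bp against 1986 bp on the autosomes. On X, 76 island promoters had 2 flanks and 70 had no site within 1 kb. The dosage of X in the clone is not given in the sources used here, and its part in these values was not tested.

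The widest site over an island TSS, 19095 bp, covered Lama5, a laminin chain of basement membranes (chr2:180213045-180232139), and reached 6280 bp upstream and 12814 bp downstream. Fbln2, the matrix protein fibulin-2, lay under 16759 bp and Adra1d, an adrenergic receptor, under 16753 bp, of which 15413 bp were downstream of the TSS. The others of the 10 widest were at Syne3, a nesprin of the nuclear envelope (16414 bp), Bcl9l, a WNT cofactor (16271 bp), the kinase gene Stk40 (16219 bp), the bHLH gene Atoh8 (16106 bp), the MADS box factor gene Mef2d (15875 bp), Col5a1 (15404 bp), and Itga5, the fibronectin receptor subunit (15271 bp). These genes differed in the side to which they extended. Atoh8 had the longest upstream reach of all, 11040 bp, with 5065 bp downstream, while Bcl9l had the longest downstream reach, 15838 bp, with 432 bp upstream. Dnaja3, a mitochondrial chaperone, began 15 bp after the start of its site and was covered for 13703 bp downstream. The TSS used for Dnaja3 was 44081 bp from that of its principal transcript. The same distance was 11132 bp for Syne3 and 4422 bp for Bcl9l.

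The narrowest sites measured 200 bp at Ppp1r12a, a subunit of myosin phosphatase, 209 bp at Otud7a, 214 bp at Gm4767 and at Olig1, and 222 bp at Wnt9b. Olig1 is a factor of oligodendrocyte development, and its next sites lay 44182 bp upstream and 82203 bp downstream. At Ppp1r12a, in contrast, the next sites were 282 and 189 bp away. A narrow site over a TSS thus stood alone at some promoters and was part of a row of sites at others. Over all 6684 promoters the next site was a median of 6538 bp away upstream and 3841 bp away downstream.

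Gene classes were compared by lists of gene families, as the share of a list's island promoters with the TSS in a site, beside the 56.6% over all island promoters. Of 289 island promoters of developmental regulators (homeobox, Sox, Fox, Tbx, Pax, Gata, bHLH and morphogen genes), 172 or 59.5% (95% Wilson interval 53.8 to 65.0%) had the TSS in a site. Of 438 island promoters of housekeeping genes (ribosomes, proteasome, respiratory chain, tRNA synthetases, initiation, splicing, RNA polymerases and chaperones), 158 or 36.1% (31.7 to 40.7%) did. What the remaining promoters looked like differed as well. In the housekeeping class 191 had a site-free TSS between 2 flanks and 8 had no site, whereas in the developmental class 24 had 2 flanks and 62 had no site. Among promoters with any site within 1 kb, a denominator chosen after seeing the data, the TSS was in a site in 75.8% of the developmental and 36.7% of the housekeeping promoters.

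The order of the classes depends on keeping neighbouring sites apart. When sites up to 1 kb from each other were merged, which closes most of the stretches around site-free TSSs, the shares were 67.1% in the developmental and 76.7% in the housekeeping class, with 79.5% over all island promoters. Both the short site-free stretch at the TSS and the promoters without any site thus enter the comparison of the classes. The paper reports that replicates were merged and does not say whether sites were called per condition and then combined. No signal height was available to grade the stretch.

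**Figure D4:**
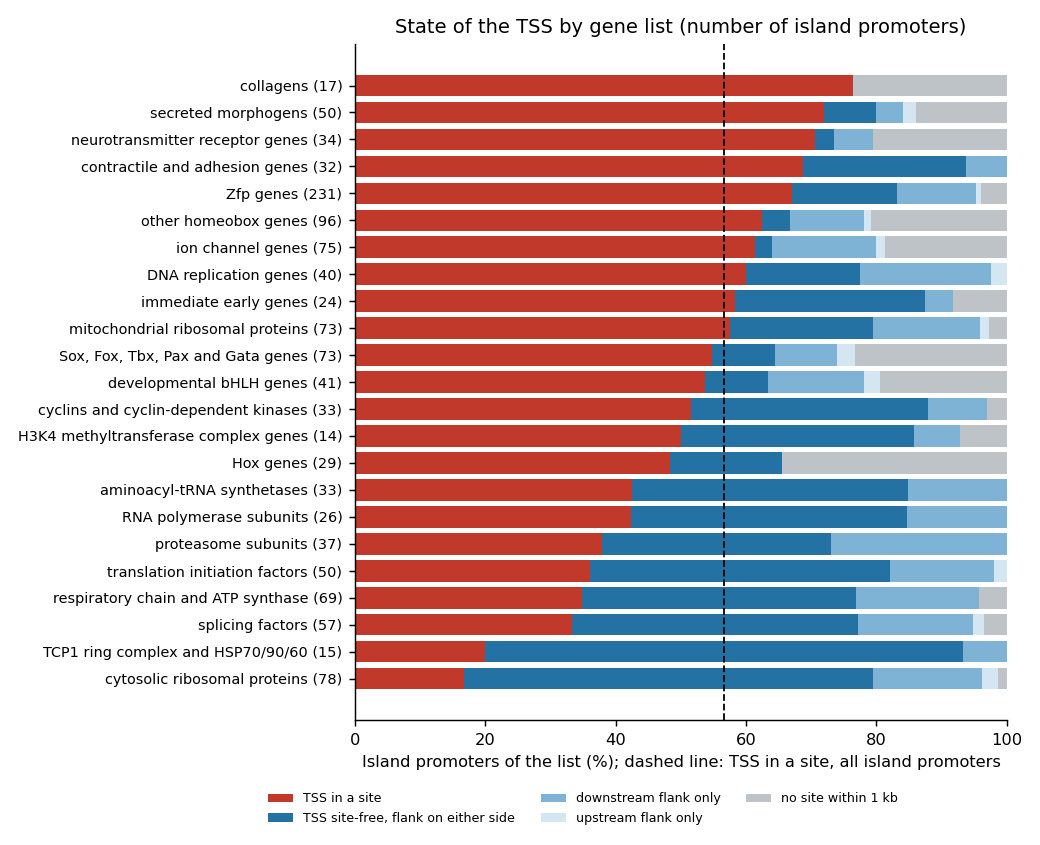
Stacked bars of the state of the TSS for each gene list, as share of its island promoters (x axis, %; number of island promoters in parentheses), with the 56.6% over all island promoters as a dashed line. Cytosolic ribosomal proteins and chaperones lie lowest, with the TSS in a site at 13 of 78 and 3 of 15 promoters, and mostly 2 flanks around a site-free TSS, and in the Hox list 10 of 29 promoters have no site.

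Among the developmental lists, the Hox genes, which set positional identity along the body axes, divided by cluster. Of 29 island promoters, 14 had the TSS in a site, 5 had 2 flanks and 10 had no site within 1 kb. All 14 were in the HoxA and HoxD clusters, with 6 of 9 island promoters in HoxA and 8 of 9 in HoxD. In HoxB none of 5 had the TSS in a site and 4 had no site, and in HoxC all 6 had no site. This division by cluster was noticed after the values were seen. The sites over Hox TSSs had a median width of 3712 bp, and the widest were 7302 bp at Hoxd11, 6560 bp at Hoxa11 and 5677 bp at Hoxd12. The site of Hoxa11 reached 4941 bp downstream and also formed a flank of Hoxa10, whose own TSS was site-free. At the other end, Hoxd3 and Hoxd4 shared a site of 875 bp, with the 2 TSSs 38 and 40 bp inside its upstream edge. This site therefore enters the 8 of HoxD as 2 promoters. The TSS used for Hoxd4 was 10049 bp from that of its principal transcript, and the TSS used for Hoxd11 was 2766 bp away. Of the 22 Hox island promoters whose most 5′ TSS was that of the principal transcript, 11 had the TSS in a site.

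The other homeobox genes had 60 of 96 TSSs in a site (62.5%), with a median width of 1462 bp. Emx2, a factor of forebrain and urogenital development, had the widest site, 6761 bp, followed by Six4 with 3830 bp and Irx3 with 3740 bp. The narrowest in this list was 326 bp at Pou4f3, a factor of hair cells of the inner ear. The Sox, Fox, Tbx, Pax and Gata genes had 40 of 73 (54.8%), from 11083 bp at the forkhead gene Foxs1, 7552 bp at Foxj2 and 7236 bp at Tbx15 to 233 bp at Pax6, the eye regulator. Developmental bHLH genes had 22 of 41 (53.7%), from Atoh8 and the 12121 bp of Scx, the scleraxis factor of tendon, to Olig1. Secreted morphogens had 36 of 50 (72.0%), from Wnt5a with 8063 bp, Fgf9 with 7253 bp and Fgf2 with 7118 bp to Wnt9b. Fgf2 was covered mainly upstream (5426 bp), while Wnt5a was covered mainly downstream (7237 bp). The TSS used was 13379 bp from that of the principal transcript for Tbx15 and 2139 bp from it for Fgf9.

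Among the housekeeping lists, the cytosolic ribosomal protein genes were farthest below the background, with 13 of 78 TSSs in a site (16.7%, 95% Wilson interval 10.0 to 26.5%). Of the other 65, 49 had 2 flanks, 13 a downstream and 2 an upstream flank, and Rpl10l, a retrocopy of Rpl10, had no site. The 13 were under sites with a median width of 3188 bp, and the widest were 11940 bp at Rps14, 5221 bp at Rpl35 and 4982 bp at Rpl12. For Rps14 the TSS used was 29305 bp before the start codon, so the site there was not at the start of the open reading frame. At Rpl15 and Rps18, the TSS of the principal transcript was 324 bp away. Of the 69 ribosomal protein genes whose most 5′ TSS was that of the principal transcript, 10 had the TSS in a site. Rps25 had the narrowest site, 595 bp.

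The mitochondrial ribosomal proteins stood near the background, with 42 of 73 (57.5%, 46.1 to 68.2%), a median width of 2037 bp and the widest sites at Mrps34 (4786 bp), Mrps6 (4212 bp) and Mrpl14 (3610 bp). Both lists encode ribosomal subunits, and their intervals did not overlap. The remaining housekeeping lists had lower shares than all island promoters, although the intervals of the last 2 named here reached 56.6%. These were the chaperones with 3 of 15, splicing factors with 19 of 57, the respiratory chain and ATP synthase with 24 of 69, initiation factors with 18 of 50, proteasome subunits with 14 of 37, RNA polymerase subunits with 11 of 26 and aminoacyl-tRNA synthetases with 14 of 33. The 3 chaperone genes were Hsp90ab1, with a site of 3818 bp that reached 2873 bp upstream, Hspa9 with 1550 bp and Tcp1 with 1053 bp. Several of the widest sites in these lists were at divergent promoters, such as Polr2l, an RNA polymerase subunit (6879 bp), Psma7, a proteasome subunit (5338 bp), and Ndufb9, a complex I subunit (3831 bp, of which 3383 bp were upstream). The narrowest included Eif1b (223 bp), Aimp1 (331 bp) and Psma5 (342 bp).

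**Figure D5:**
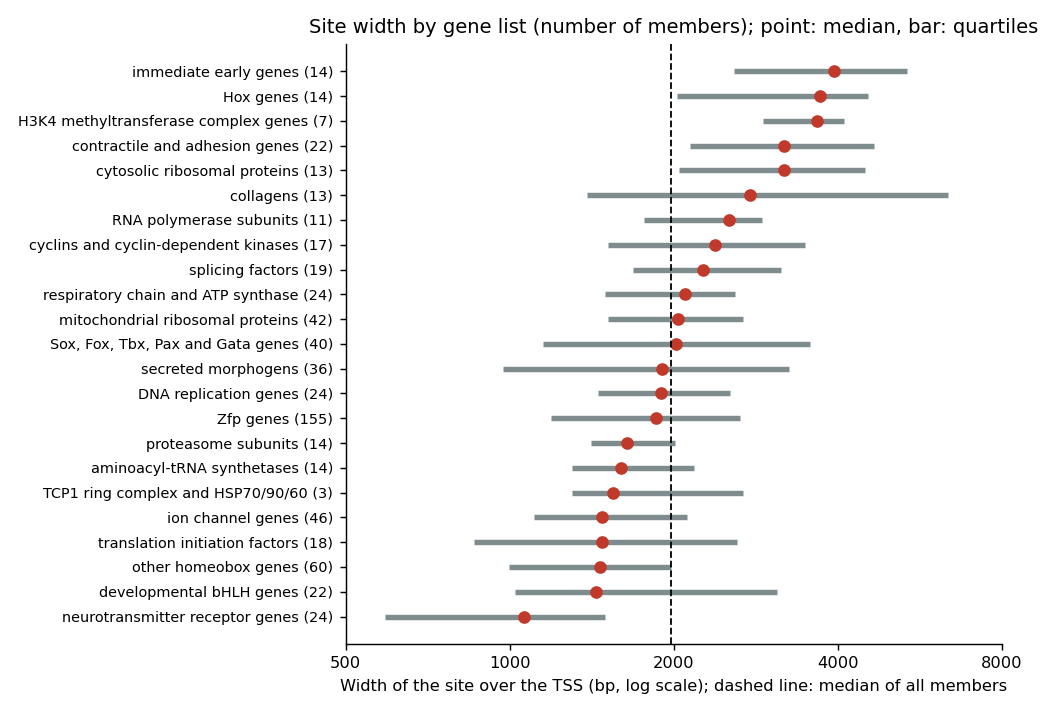
Width of the site over the TSS by gene list (x axis, bp, log scale; number of promoters in parentheses), with the median as a point, the quartiles as a bar and the median of all 6684 promoters, 1979 bp, as a dashed line. The lists of cell type markers are not plotted. Of the lists plotted, immediate early genes (3934 bp) and Hox genes (3712 bp) have the highest medians and neurotransmitter receptor genes (1063 bp) the lowest.

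Collagen, contractile and adhesion genes were grouped as a fibroblast class, by symbol and not by their expression in fibroblasts. They had 35 of 49 TSSs in a site (71.4%, 57.6 to 82.1%), with a median width of 3043 bp. For collagens it was 13 of 17, and the other 4 had no site within 1 kb, so none had flanks alone. Col4a1 and Col4a2, basement membrane collagens that start close together on opposite strands, shared a site of 11373 bp, and Col23a1 had the narrowest (1037 bp). Contractile and adhesion genes had 22 of 32, with a median width of 3190 bp. The actin-binding genes Tpm2 and Cnn2 followed Itga5 with 7061 and 6596 bp, and the integrin gene Itgb4 was narrowest with 656 bp.

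Ion channel and neurotransmitter receptor genes were grouped as a neuronal class, by symbol and not by their expression in neurons. They had 70 of 109 TSSs in a site (64.2%, 54.9 to 72.6%), with a median width of 1344 bp. Ion channel genes had 46 of 75, from the calcium channel genes Cacna1g (8398 bp) and Cacna1h (6051 bp) and the channel subunit gene Kcnab3 (6237 bp) to Kcnj11 (272 bp). Neurotransmitter receptor genes had 24 of 34 and a median width of 1063 bp. Their widest sites were 2923 bp at the GABA receptor gene Gabbr1, 2529 bp at Chrna3 and 2458 bp at Grin3a, and the narrowest was 302 bp at Gabra2. The intervals of the shares overlapped between the fibroblast and neuronal classes, while the median widths were 3043 and 1344 bp.

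Of the remaining lists, DNA replication genes had 24 of 40 TSSs in a site, with Cdt1, a licensing factor, under 3561 bp, Pold2 under 3296 bp and Mcm6 under 3135 bp. Cyclins and cyclin-dependent kinases had 17 of 33, from 11610 bp at Ccnd1, the G1 cyclin D1, of which 7414 bp were upstream, to 471 bp at the inhibitor gene Cdkn2c. Zinc finger genes named Zfp had 155 of 231 (67.1%, 60.8 to 72.8%). The widest of these were at Zfp36 (8542 bp), Zfp703 (8175 bp) and Zfp36l1 (7727 bp). Immediate early genes, which growth factors induce within minutes, had 14 of 24 and a median width of 3934 bp, with 9467 bp at Junb, 7616 bp at Fosl1, 5534 bp at Dusp5 and 1002 bp at Egr4.

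The genes of the H3K4 methyltransferase complexes themselves were divided. Of 14 with an island, 7 had the TSS in a site. These were the methyltransferase genes Kmt2d (5517 bp), Setd1b (4523 bp) and Setd1a (3694 bp), the core subunit gene Wdr5 (3662 bp), and the genes of the accessory subunits Paxip1 (3363 bp), Ncoa6 (2461 bp) and Wdr82 (1706 bp). All 7 had the longer reach downstream. The methyltransferase genes Kmt2a, Kmt2b and Kmt2c, the CpG-binding subunit gene Cxxc1 and the demethylase gene Kdm6a had a site-free TSS between 2 flanks, with stretches of 303, 715, 386, 440 and 369 bp. Hcfc1 had a downstream flank, and Men1, which encodes menin, had no site. The core subunit genes Ash2l, Dpy30 and Rbbp5 had no island within 1 kb of the TSS by the rule used and are not among these promoters.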

How the data were processed

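H3K4me1 ChIP-seq libraries of NG3 cells were processed by the authors. Reads were trimmed with Trim Galore and aligned to mm10 with BWA, SAMtools was used for filtering and Picard for merging replicates, and broad peaks were called with MACS2. The submitters' processing notes also name deepTools and DESeq2. Tool versions and the thresholds of peak calling are not given in the sources used here. The deposited values are positions in bases, the start (counted from 0) and end of each of 160144 peaks, and coordinates are printed counted from 1. No counts, signal or p-values per library were used here, and the planned edgeR test of changed sites per time point was therefore not run.

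TSSs came from GENCODE M21 (protein-coding genes, most 5′ TSS) and the sequence from GRCm38.p6. CpG islands (16099) were called outside repeats by scoring each CpG 17 and any other base -1, keeping those longer than 200 bp with GC of at least 50% and observed/expected CpG over 0.6. Upstream and downstream reach were the distances from the TSS to the edges of the site over it. Shares carry 95% Wilson intervals, which cover counting alone and treat promoters as independent. Widths have quartiles. Gene lists were defined by symbol. The genes named are those under the 10 widest and 5 narrowest sites, the 5 with the longest reach on either side, the 3 closest to an edge from inside and from outside, in each list the 3 widest and the narrowest, and the COMPASS list. Other genes were named after their values were seen. The promoters, lists and comparisons were chosen with earlier results of these data known. Alternatives concerned the TSS, the islands, the width and merging of sites, the overlap and chromosome X. Functions were tested on simulated data. Python 3.11.15, numpy 2.4.6, pandas 2.3.3, scipy 1.17.1, numba 0.67.0 and matplotlib 3.10.9 were used. Some items are not reported here.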

Additional observations from a re-analysis of the deposited data

How the results depend on the processing

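Of 67 comparisons of 8 results with an alternative setting, 46 stayed within the limits set for them and 21 moved. Merging sites over gaps of up to 1 kb moved 6 of the 8 results. It gave 79.5% of island promoters, 67.1% of developmental and 76.7% of housekeeping promoters with the TSS in a site, a median width of 2936 bp and reaches of 941 bp upstream and 1738 bp downstream. The number of promoters was then 9385, within 1.5 times of 6684. It follows from the construction that merged sites are wider and cover more TSSs. Stricter islands left 4405 promoters, with 2107 bp in width, 700 bp upstream and 1263 bp downstream. Sites of at least 500 bp gave 55.2%, 2013 bp in width and 1226 bp downstream. A TSS at least 50 bp inside the site gave 54.2%, 2018 bp in width and 678 bp upstream. The upstream reach was 677 bp with principal TSSs and 681 bp with the TSS inside an island. The share was 57.8% without chromosome X. With a site within 1 kb required, which was chosen after seeing the data, the shares were 60.9% and, for developmental genes, 75.8%. The share with the longer reach downstream lay between 73.2 and 74.7% under its 8 alternatives.

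No paired analysis was possible because single libraries have no values in the table, and the planned edgeR fits with a replicate block and without each replicate were not run. The table gives no depth, so a TSS free of sites cannot be told from a TSS with too few reads, and from its positions alone the sites of control and treated cells cannot be told apart.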

Other observations

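Island promoters were also grouped by the letters with which gene symbols begin, for the stems with at least 15 island promoters, and the stems named here were chosen after their values were seen. The highest shares with the TSS in a site were those of Wnt and Sema genes, beside 56.6% over all island promoters. Most stems hold few promoters, so the ends of this ranking are selected values, and no intervals are given. Of 16 Wnt island promoters, 15 had the TSS in a site (93.8%), and Wnt7b had 2 flanks. Of 16 Sema island promoters, which belong to the semaphorin guidance proteins, 15 did, and Sema4d had a downstream flank. The Wnt stem overlaps with the list of secreted morphogens above.

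The lowest shares, beside the same 56.6%, were found for Hist genes, the histones named by cluster, with 10 of 63 (15.9%). Next were Rpl with 7 of 44 (15.9%) and Rps with 8 of 36 (22.2%). Of the 63 histone promoters, 14 had 2 flanks and 12 had no site within 1 kb. The Rpl and Rps stems overlap with the list of cytosolic ribosomal proteins above. The Rps stem also takes in promoters of genes outside that list. Cdk genes had 7 of 22 (31.8%) and Med genes, which encode Mediator subunits, 9 of 26 (34.6%).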
